A study of Rattus norvegicus with 6 samples.

Results

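The genes described here are 10 regulators of energy metabolism in heart muscle, picked by name from a table of 22250 rat genes: the coactivators Ppargc1a and Ppargc1b, the nuclear receptors Ppara, Ppard, Pparg, Esrra, Esrrb, Esrrg and Rxra, and the transcription factor Nrf1. Each name had 1 row in the table. RNA-seq read counts and FPKM (reads per kilobase of gene length and per 1000000 reads of the library) were available for 6 libraries of neonatal rat cardiomyocytes, heart muscle cells taken by collagenase digestion from 1-day-old wild-type Sprague-Dawley rats and cultured with serum. Control cells received the solvent DMSO (n = 3). Treated cells received 3Cl-HBA, a small-molecule agonist of the lactate receptor HCAR1, at 40 µM for 48 h (n = 3). The labels number the libraries 1 to 3 in each group without saying whether those were separate cultures or animals, so the p-values measure only the spread between these libraries, which may be technical.

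PGC-1 coactivators bind no DNA of their own; they dock on nuclear receptors and other transcription factors and bring in the enzymes that open chromatin. PPARs sense fatty acids and their derivatives, pair with a retinoid X receptor such as RXRα, and switch on genes of fatty acid uptake and burning. The estrogen-related receptors (ERRs), which have no known natural hormone, and NRF1, nuclear respiratory factor, act on genes of the respiratory chain and of mitochondrial DNA upkeep. In the heart around birth this network is known for its part in the shift from glucose and lactate to fatty acids as fuel. Cyclic AMP raises Ppargc1a in many tissues through a cAMP response element in its promoter, and HCAR1 couples to a G protein that lowers cyclic AMP.

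The RefSeq promoter windows of these genes (assembly GRCr8, which may differ from the build of the deposited table) were searched for this element and for sites of NRF1 and the ERRs in the 250 bases before the start of transcription, on both strands. Windows were found for 12 of 13 genes, the 10 regulators and their family genes Pprc1, Rxrb and Rxrg, with none for Ppard. The letters TGACGTCA, the full cAMP response element, were found in 1 of the 16 windows of these 12 genes, that of Ppargc1a, against 1.59% of all 33469 windows. The letters CGCATGCG, the palindromic core of an NRF1 site, were found in 1 of the 16, that of Ppara, against 1.47% of all windows. The ERR element TNAAGGTCA (1.04% of windows) was in 0 of the 16, which says only that these letters are not there. The motifs were chosen after the windows had been seen, so the matches are descriptions and cannot be tested against these shares. Both windows with a match are shown with the matched letters in capitals, from chr14:63634058-63634307 and chr7:118712357-118712606, both on the plus strand; the cAMP element lies 181 to 174 bases before the Ppargc1a start and the NRF1 letters 99 to 92 bases before the Ppara start.
Ppargc1a: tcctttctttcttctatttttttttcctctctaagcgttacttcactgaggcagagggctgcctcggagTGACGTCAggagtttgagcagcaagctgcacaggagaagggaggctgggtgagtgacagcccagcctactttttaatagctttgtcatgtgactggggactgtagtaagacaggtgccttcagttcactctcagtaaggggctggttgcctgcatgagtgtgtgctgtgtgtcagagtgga
Ppara: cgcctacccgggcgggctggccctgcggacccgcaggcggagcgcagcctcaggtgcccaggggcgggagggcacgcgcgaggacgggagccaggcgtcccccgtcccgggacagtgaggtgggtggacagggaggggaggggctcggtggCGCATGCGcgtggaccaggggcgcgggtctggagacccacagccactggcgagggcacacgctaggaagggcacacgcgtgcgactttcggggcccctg

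Library totals were 13240800 to 17202191 reads, and each 3Cl-HBA library was deeper than each DMSO library. Heart muscle markers were abundant, with Actc1 (cardiac actin) at 3335 ± 85.4 FPKM in DMSO and 3397 ± 116 after 3Cl-HBA (SD, n = 3), and the cultures also held RNA of fibroblasts (Col1a1 1795 ± 71.7 and 1745 ± 14.4 FPKM) and of smooth muscle, endothelium and macrophages. Summed over the marker list, cardiomyocyte markers ranged from 9281 to 9960 FPKM in DMSO and 9478 to 9758 after 3Cl-HBA, fibroblast markers from 3124 to 3282 and 3159 to 3204, endothelial markers from 160 to 185 and 169 to 175, and macrophage markers from 238 to 260 and 256 to 267. The log2 fold change was above 0 for 7 of 7 macrophage markers tested and 4 of 6 endothelial ones. It was above 0 for 4 of 8 cardiomyocyte, 3 of 7 fibroblast and 3 of 7 smooth muscle and pericyte markers. For adipocyte and skeletal muscle markers it was 1 of 2 and 1 of 3. Of all genes tested, 49.8% were above 0, and 0 markers passed the test. In such bulk samples, fewer cells of a type and less RNA per cell cannot be told apart.

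The 3Cl-HBA treatment gave no regulator a difference that passed the test. All 10 passed the filter on low counts, and 0 of 10 had an adjusted p under 0.05 in edgeR's quasi-likelihood test with Benjamini-Hochberg adjustment over the 13903 genes tested, where 0% of all genes passed. Adjusted p-values of the 10 ran from 0.959 to 0.998. DESeq2 and limma-voom also called 0 of 10. At an unadjusted p under 0.05 there was 1, Pparg, or 10% of the regulators against 5.11% of all genes; limma-voom had 1 and DESeq2 0. Log2 fold changes (log2FC, treated over control) were below 0 for 6 and above 0 for 4, while 50.2% of all genes were below 0 and 49.8% above. The median was -0.04 for the regulators and -0.00047 for all genes tested, and the median size without regard to sign was 0.057 and 0.069.

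The data bounded the size of any difference between these libraries, whose spread may be technical, as said above. In 9 of the 10 genes the 95% interval held only changes smaller than 1.5-fold in either direction, and in all 10 only changes smaller than 2-fold.

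**Figure D1:**
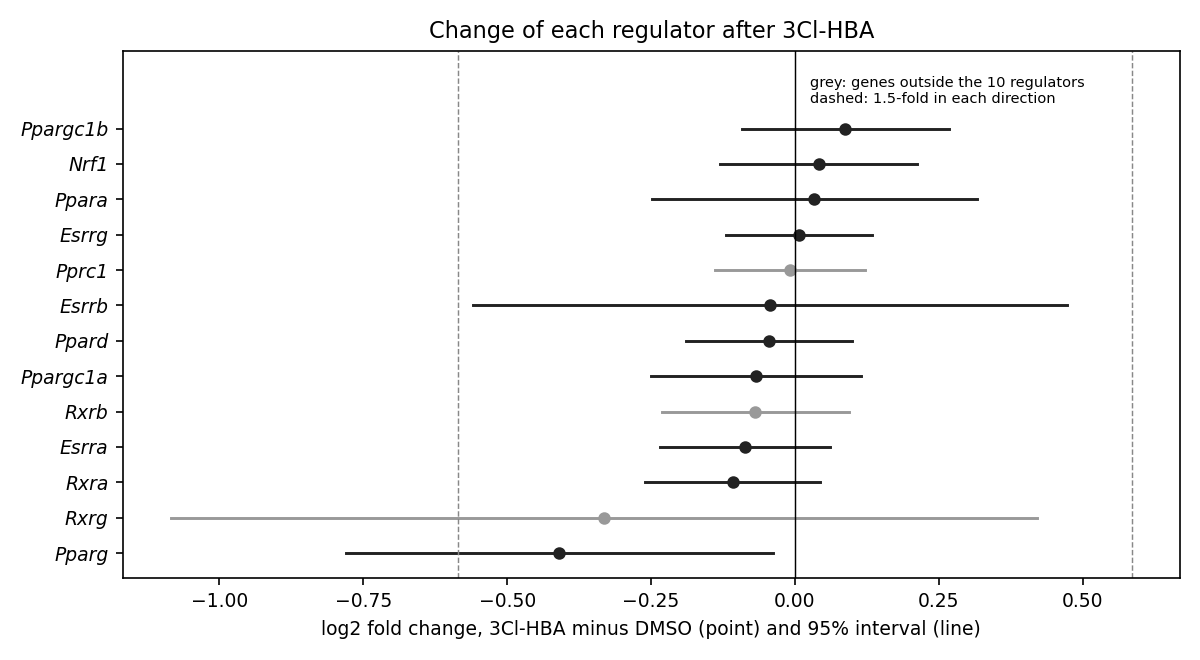
Log2 fold change of each regulator (3Cl-HBA minus DMSO, horizontal axis) with its 95% interval from edgeR's fit; grey marks the 3 family genes outside the 10 regulators and dashed lines mark 1.5-fold. Every interval but that of Pparg, from -0.78 to -0.04, spans 0, and those of Pparg and Rxrg reach past a 1.5-fold decrease.

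The coactivators were expressed at middle levels. Ppargc1a, which encodes PGC-1α (ENSRNOG00000004473, chromosome 14, 63095720 to 63187009, plus strand, in the deposited table's coordinates, whose build no source used here gives) was covered by 363, 468 and 405 reads in the control libraries 1 to 3 and by 388, 480 and 475 reads in the treated libraries 1 to 3. Scaled per 1000000 reads with TMM factors (CPM), these were 26, 32.2 and 30.7 in DMSO and 26.4, 28.1 and 30.3 after 3Cl-HBA. The 3 treated values lay within the range of the DMSO values. The log2FC was -0.07 with an SE of 0.091 (95% interval -0.25 to 0.11, edgeR adjusted p 0.986). For these libraries, that bounds the level after 3Cl-HBA between 0.840 and 1.08 times that in DMSO. With single libraries left out, the log2FC ranged from -0.16 without DMSO replicate 1 to -0.0029 without DMSO replicate 2.

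Ppargc1b, which encodes the related coactivator PGC-1β (chromosome 18, 56626712 to 56728968, minus strand), had 28.8, 27.3 and 24 CPM in DMSO and 28.3, 28.6 and 28.4 CPM after 3Cl-HBA. The treated libraries were close together, and 1 DMSO library, replicate 1, lay above all of them. Its log2FC was 0.09 with an SE of 0.090 (95% interval -0.09 to 0.27; edgeR adjusted p 0.984), and 0.01 without DMSO replicate 3 and 0.14 without DMSO replicate 1. Pprc1, the third and more widely expressed gene of the family, had 62.4, 61.6 and 63.1 CPM in DMSO and 60.5, 61.8 and 63.6 CPM after 3Cl-HBA (log2FC -0.0087, SE 0.065). The 2 PGC-1 genes among the regulators differed in opposite directions by amounts within their errors.

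Among the PPARs, Pparg showed the widest difference of the 10 regulators. Pparg, known as the master factor of fat cells and also present in macrophages and endothelium (ENSRNOG00000008839, chromosome 4, 147274107 to 147399380, plus strand), had 117, 81 and 96 reads in DMSO against 63, 111 and 80 after 3Cl-HBA. These were 8.38, 5.58 and 7.28 CPM in DMSO and 4.29, 6.49 and 5.1 CPM after 3Cl-HBA. The groups overlapped, with 3Cl-HBA replicate 2 above DMSO replicate 2. The log2FC was -0.41 with an SE of 0.18 and a 95% interval of -0.78 to -0.04 (edgeR p 0.0314 unadjusted and 0.959 adjusted). It was -0.27 without DMSO replicate 1 and -0.28 without 3Cl-HBA replicate 1 (edgeR unadjusted p 0.205 and 0.156), and -0.56 without DMSO replicate 2 and -0.59 without 3Cl-HBA replicate 2 (0.00808 and 0.00759), with adjusted p-values of 0.753 or more in each leave-one-out fit. Defining adipocyte markers were at or near 0: the fat cell hormone gene Adipoq had 0 reads in 5 of the 6 libraries and 1 read in 3Cl-HBA replicate 1, and the lipid droplet coat gene Plin1 had 0 to 4 reads per library. The summed adipocyte list, nearly all of it the fatty acid carrier Fabp4 (27.1 ± 3.15 and 24.4 ± 3.73 FPKM), ranged from 26.3 to 32.4 FPKM in DMSO and 23.3 to 30.9 after 3Cl-HBA. The part of the macrophage and endothelial cells, whose summed markers are given above, was not tested.

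The other PPAR genes lay close to their control levels. Ppara, the PPAR best known for switching on fatty acid burning in heart and liver, had 13.2, 10.7 and 8.64 CPM in DMSO and 10.6, 12 and 10.7 CPM after 3Cl-HBA. All treated values lay between the lowest and the highest DMSO value, and the log2FC was 0.03 with an SE of 0.14 (95% interval -0.25 to 0.32). Ppard, the broadly expressed PPAR, had 50.7, 46.4 and 51.1 CPM in DMSO and 46.6, 49.1 and 47.8 CPM after 3Cl-HBA. Its values also fell inside the DMSO range, with a log2FC of -0.05 and an SE of 0.072 (95% interval -0.19 to 0.10).

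Among the ERRs, Esrra was the most abundant regulator per length, with treated libraries on both sides of the controls. Esrra, which encodes ERRα, a main partner of PGC-1 on respiratory chain genes (ENSRNOG00000021139, chromosome 1, 222168730 to 222178725, minus strand), had 62.6, 63.6 and 64.4 CPM in DMSO and 69.3, 54.9 and 55.6 CPM after 3Cl-HBA. The DMSO libraries lay within a few percent of each other, 3Cl-HBA replicate 1 lay above all of them, and 3Cl-HBA replicates 2 and 3 lay below all of them. The log2FC was -0.09 with an SE of 0.073 (95% interval -0.23 to 0.06; edgeR adjusted p 0.984). Single treated libraries moved it: it was -0.20 without 3Cl-HBA replicate 1 (edgeR unadjusted p 0.00707, adjusted p 0.822), -0.03 without replicate 2 (unadjusted p 0.742) and -0.04 without replicate 3 (unadjusted p 0.646). Esrra overlaps Trmt112, a methyltransferase partner gene with 2204 reads over the 6 libraries, on the opposite strand, and with the strand setting of the counting not given, reads of the pair cannot be told apart where they overlap.

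Esrrg, which encodes ERRγ, the ERR linked to the oxidative program of heart and slow muscle, had 84.3, 82.9 and 77.2 CPM in DMSO and 75, 85.7 and 84.7 CPM after 3Cl-HBA. In 3Cl-HBA replicate 1, the library with the highest Esrra, Esrrg was at its lowest, and the fold change over all libraries was 0.0066 on the log2 scale with an SE of 0.063 (95% interval -0.12 to 0.13). Esrrb, which encodes ERRβ, known from stem cells and the inner ear, had only 34 to 45 reads per library in DMSO and 36 to 50 after 3Cl-HBA. Its log2FC of -0.04 had an SE of 0.26 and a 95% interval from -0.56 to 0.47, the widest of the 10 regulators.

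Rxra was the 1 regulator whose groups did not overlap, by a very small margin. Rxra, which encodes the shared PPAR partner RXRα (ENSRNOG00000009446, chromosome 3, 6211789 to 6295908, plus strand), had 626, 597 and 562 reads in DMSO against 573, 668 and 645 after 3Cl-HBA, or 44.8, 41.1 and 42.6 CPM against 39.1, 39.1 and 41.1 CPM. The lowest DMSO library lay 0.018 CPM above the highest treated one. Of all genes tested, 10.5% had groups that did not overlap, 5.22% with the treated libraries lower, so 1 of 10 is near the background. The log2FC was -0.11 with an SE of 0.075 (95% interval -0.26 to 0.04; edgeR adjusted p 0.984).

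The other RXR genes are shown for the family only. Rxrb, the widely expressed RXRβ gene, had 40.7, 46.1 and 43.4 CPM in DMSO and 45.8, 36.3 and 42.5 CPM after 3Cl-HBA (log2FC -0.07, SE 0.080). Rxrg, the RXRγ gene, had 17 to 27 reads per library in DMSO and 9 to 28 after 3Cl-HBA, and its 95% interval, -1.08 to 0.42 on the log2 scale, did not bound a 2-fold decrease.

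Nrf1, which acts on nuclear genes for the respiratory chain and for mitochondrial DNA transcription, had 30.3, 33 and 37.7 CPM in DMSO and 32.9, 34.8 and 36 CPM after 3Cl-HBA. The treated values lay inside the DMSO range, with a log2FC of 0.04 and an SE of 0.085 (95% interval -0.13 to 0.21; edgeR adjusted p 0.993).

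Ranked per gene length, Esrra, Rxra and Esrrg led. Esrra had 29.1, 29.6 and 29.7 FPKM in DMSO and 32.3, 25.3 and 25.7 FPKM after 3Cl-HBA, more than 78.2% of the genes tested. Next came Rxra, at 22.6, 20.7 and 21.4 FPKM in DMSO and 19.8, 19.6 and 20.7 FPKM after 3Cl-HBA, and then Esrrg, at 15.9, 15.6 and 14.4 FPKM and 14.1, 16 and 15.9 FPKM. These 3 genes did not overlap each other in level over the 6 libraries: Esrra was above Rxra and Rxra above Esrrg in 6 of 6, by a mean ratio of 1.38 and 1.36.

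Below them lay a group of genes in which the order of neighbours was not resolved. Means over the 6 libraries were 11.6 FPKM for Pprc1, 10.6 for Ppargc1a, 10.1 for Rxrb, 9.69 for Nrf1, 8.64 for Ppard and 8.4 for Ppargc1b, and each neighbour in this order overlapped the next over libraries. Genes further apart in this order were separated in part. Each Pprc1 value (lowest 11.32 FPKM) lay above each value of Rxrb (highest 10.98), Nrf1, Ppard and Ppargc1b. Ppargc1a, with 9.51 to 11.8 FPKM, stood above 50.7% of the genes tested. Its values all lay above those of Ppard (highest 9.06 FPKM) and Ppargc1b (highest 8.81 FPKM). A gap followed, to Ppara at 5.14 FPKM (4.04 to 6.2), below Ppargc1b in 6 of 6 libraries by a mean ratio of 1.65. Pparg (2.69 FPKM, 1.88 to 3.66) was below Ppara in 6 of 6 and overlapped Esrrb (2.16 FPKM, 1.76 to 2.63), while Rxrg, at 0.644 FPKM, was lowest of all.

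**Figure D2:**
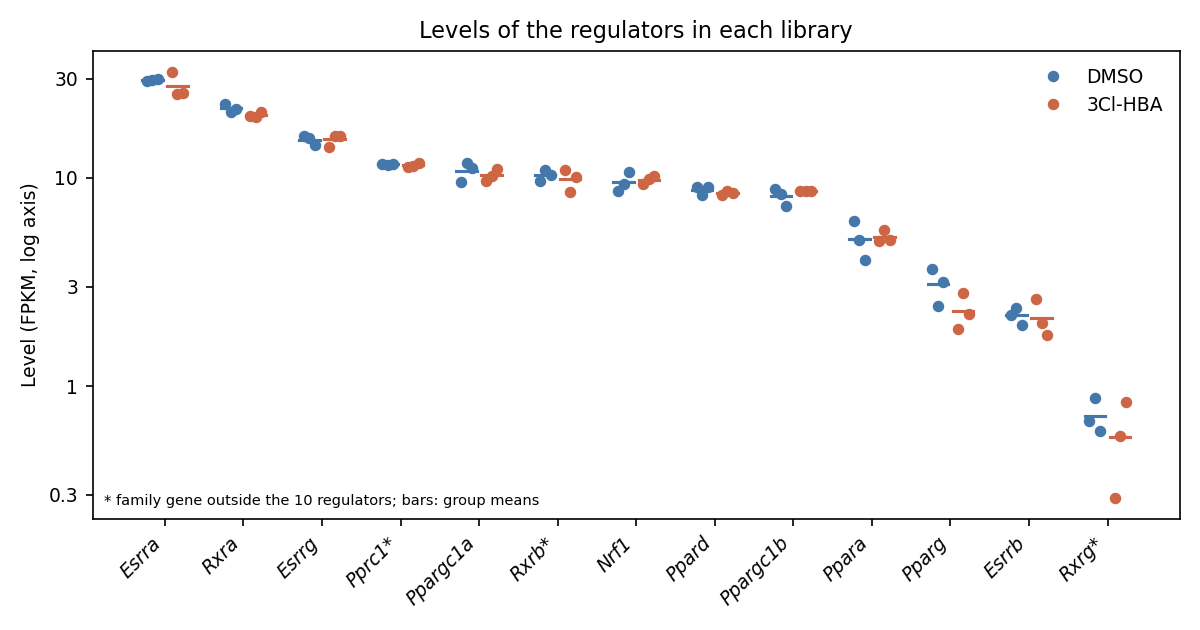
Level of each gene in FPKM (log axis) in the 3 DMSO and 3 3Cl-HBA libraries, ordered by mean level, with bars at group means and asterisks on family genes outside the 10 regulators. Esrra, Rxra and Esrrg stand clear of the genes from Pprc1 to Ppargc1b, which overlap their neighbours, and Rxrg lies below 1 FPKM in each library.

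Within families, the leading isoform was the same in each library for the PPARs, ERRs and RXRs. Ppard held 47.8, 52.6 and 55.7% of PPAR FPKM in DMSO and 54.8, 50.8 and 54% after 3Cl-HBA. Ppara followed with 29.9 ± 4.35% in DMSO and 32.5 ± 0.5% after 3Cl-HBA (SD, n = 3). Pparg held the least, 19.4, 15.5 and 19.4% in DMSO against 12.4, 16.5 and 14.1% after 3Cl-HBA. These groups overlapped.

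Esrra took 61.7, 62.2 and 64.5% of ERR FPKM in DMSO and 65.8, 58.4 and 59.3% after 3Cl-HBA, with Esrrg at 32.5 ± 1.19% and 34.1 ± 4.6% and Esrrb at 4.65 ± 0.371% and 4.69 ± 0.653%. The treated libraries spread about the DMSO values on both sides. Rxra took 66.1 ± 2.47% and 65.8 ± 2.2% of RXR FPKM, Rxrb 31.6 ± 2.15% and 32.3 ± 2.73%, and Rxrg 2.2 ± 0.43% and 1.87 ± 0.868%. In the PGC-1 family the shares were closer, with Pprc1 at 38 ± 1.45% and 37.8 ± 0.312%, Ppargc1a at 35.4 ± 3.13% and 33.8 ± 1.18%, and Ppargc1b at 26.7 ± 2.62% and 28.4 ± 0.881%. No isoform's share had groups that did not overlap, and an exact permutation test of 3 against 3 libraries cannot give a p under 0.1, so the shares were not tested. Shares do not show the family total. The summed RXR FPKM was lower in each treated library, at 33, 32.6 and 32.3 in DMSO and 31, 28.7 and 31.6 after 3Cl-HBA. The sums of the PPAR, ERR and PGC-1 families overlapped between groups. Of all single genes tested, 10.5% had groups that did not overlap, and the sums were not tested.

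**Figure D3:**
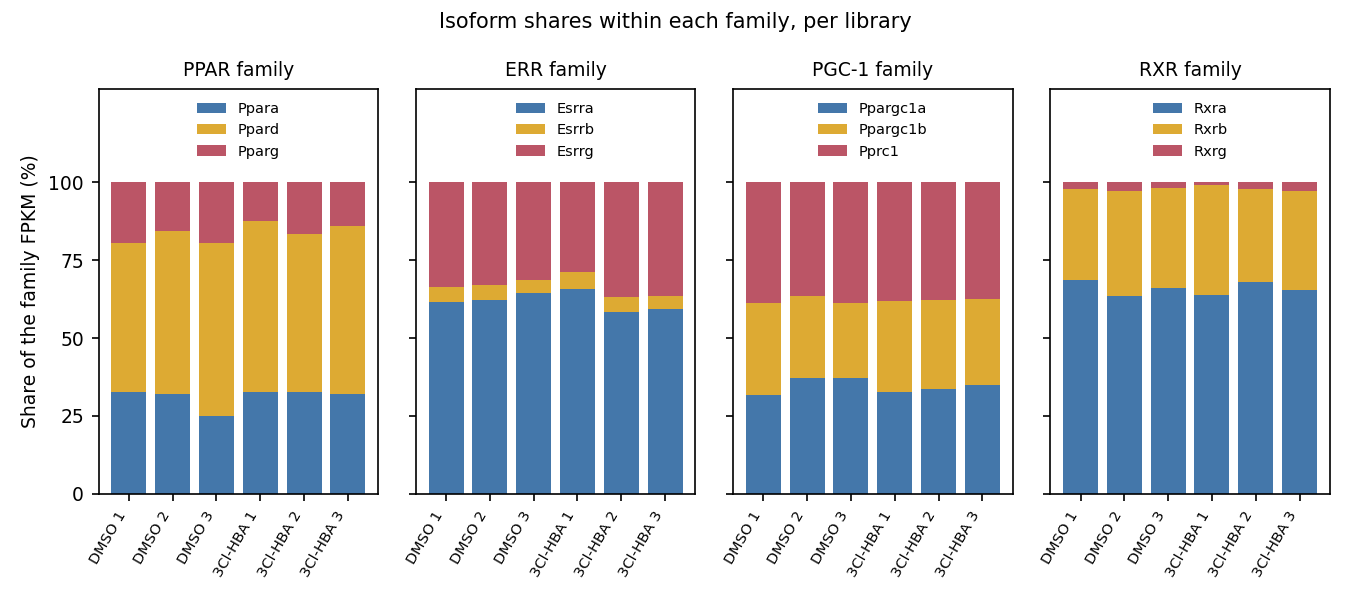
Share of each isoform in the summed FPKM of its family (percent, vertical axis) for each of the 6 libraries, with 1 panel per family. Ppard, Esrra and Rxra are the largest parts of their families in each library, at 47.8 to 55.7%, 58.4 to 65.8% and 63.6 to 68.6%, and the 3 PGC-1 genes are nearer to each other.

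The ranking rests on the lengths in the deposited table. They were 5620 bases for Ppard against 2129 for Ppara and 2294 for Pparg. For the ERRs they were 5330 for Esrrg against 2156 for Esrra and 1302 for Esrrb. Rxra had 1985 against 4209 for Rxrb, and Ppargc1a 2737 against 5371 for Pprc1. By mean CPM in DMSO, Rxra (42.8) lay below Esrrg (81.5), Esrra (63.5), Pprc1 (62.35), Ppard (49.4) and Rxrb (43.4). The Esrra level may hold reads of Trmt112, as given above. By reads alone Esrrg, not Esrra, led the ERRs, with 55.1% of ERR CPM in DMSO against 43% for Esrra, and Rxrb and Rxra were nearly level (49.5% and 48.8% of RXR CPM). Ppard led the PPARs by either measure.

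Other genes were ranked by how closely their pattern over the libraries followed that of Ppargc1a. Likeness was the root mean square difference of log2 CPM over the 6 libraries, each gene centred on its mean and divided by its SD, among 10670 other named genes averaging 5 CPM or more, on which 0 is an identical pattern. The closest genes were Ttc21b, a ciliary transport gene (0.087), Asb3, a ubiquitin ligase adaptor gene (0.159), and Gbp1, a guanylate-binding protein gene (0.184). Esrrb averaged less than 5 CPM and was not compared. Among the regulators compared, Nrf1 was the closest, at 0.814 and rank 788, and Ppara the farthest, at 1.64 and rank 9833. These are descriptions over 6 points that share depth and scaling.

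The genes around the regulators gave no calls either. For the counts of each list, the shares over all genes tested were 50.2% below 0, 49.8% above 0 and 5.11% at an unadjusted p under 0.05. Of 167 listed symbols in 6 lists, 162 were matched. Sirt1, Prkag1, Cd36, Ogdh and Timm23 were not matched, and Ucp3, Creb3l3 and Cox7a1 did not pass the filter on low counts. Of the genes tested, 0 passed in either direction with edgeR, DESeq2 or limma-voom. Among nuclear receptor coregulators, 18 of 18 were tested, 4 were above 0 and 14 below, the median log2FC was -0.02, and 2 had an edgeR unadjusted p under 0.05. The corepressor Ncor1 had 26.4 ± 0.963 FPKM in DMSO and 26 ± 0.891 after 3Cl-HBA, and the deacetylase it carries, Hdac3, had 22.9 ± 0.822 and 23.8 ± 0.829 FPKM. Ep300, an acetyltransferase recruited by PGC-1, had the smallest p of the list, at 40.2, 42.4 and 36.5 CPM in DMSO and 30.6, 33.6 and 37.8 CPM after 3Cl-HBA. Its groups overlapped, and the log2FC was -0.22 (SE 0.084, edgeR adjusted p 0.959).

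Upstream of PGC-1, 26 kinases, phosphatases, transcription factors and modifiers were tested, with 11 above 0 and 15 below, a median of -0.02 and 2 at an unadjusted p under 0.05. The arginine methyltransferase Prmt1 had 74.7 ± 3.45 FPKM in DMSO and 79.3 ± 3.04 after 3Cl-HBA, the muscle transcription factor Mef2a 56.9 ± 7.73 and 55.9 ± 3.55, and the AMP-activated kinase subunit Prkab1 47.6 ± 2.12 and 47.9 ± 0.206. Ppp3cb, a catalytic subunit of calcineurin, had the smallest p, with 81.1, 85.5 and 73.2 CPM in DMSO and 68.4, 76.1 and 70 CPM after 3Cl-HBA (log2FC -0.16, SE 0.065, edgeR adjusted p 0.959). In RXR isoforms, their other partners and fellow mitochondrial regulators, 18 were tested, 10 above 0 and 8 below, with a median of 0.0079 and 2 at an unadjusted p under 0.05. Thra, the thyroid hormone receptor α gene, had the smallest p and lay lower in each treated library, at 52.1, 51.9 and 55.5 CPM in DMSO and 49, 44.9 and 47.9 CPM after 3Cl-HBA (log2FC -0.17, SE 0.071, edgeR adjusted p 0.959). The stress regulators Nfe2l2 and Nfe2l1 and the zinc finger factor Yy1 led this list in level, at 78.8 ± 0.926, 72 ± 1.93 and 37.7 ± 1.65 FPKM in DMSO and 81.5 ± 2.59, 67.9 ± 1.14 and 37.4 ± 2.2 after 3Cl-HBA. Groups did not overlap for 3 of the 18, Thra, Nfe2l2 and Nfe2l1, against 10.5% of all genes tested. In the other lists this held for 0 of 18 coregulators, 1 of 26 genes upstream of PGC-1 and 5 of 39 PPAR targets. It also held for 2 of 41 ERR and NRF1 targets and 3 of 17 genes of mitochondrial DNA transcription and import.

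Among PPAR target genes, 39 were tested, 22 were above 0 and 17 below, the median was 0.02, and 3 had an unadjusted p under 0.05. The fatty acid carrier Fabp3 had 301 ± 24 FPKM in DMSO and 319 ± 7.74 after 3Cl-HBA, the thioredoxin inhibitor Txnip 290 ± 14.7 and 289 ± 8.02, and the β-oxidation subunit Hadhb 258 ± 4.63 and 261 ± 7.69. Ucp2, a mitochondrial carrier, had the smallest p, with 292, 277 and 329 CPM in DMSO and 322, 342 and 340 CPM after 3Cl-HBA. DMSO replicate 3 lay within the treated range, the log2FC was 0.16 (SE 0.052, edgeR adjusted p 0.935), and without DMSO replicate 3 it was 0.23 (edgeR adjusted p 0.0356). The ends of the list's range, named after their values were seen, were low in reads: Plin5, a lipid droplet coat gene of oxidative tissue, had 16, 14 and 18 reads in DMSO against 45, 26 and 23 after 3Cl-HBA (log2FC 0.79, SE 0.36, edgeR adjusted p 0.959, and 0.37 without 3Cl-HBA replicate 1), and Ehhadh, a peroxisomal β-oxidation enzyme, 48, 57 and 44 reads against 42, 40 and 50 (-0.36, SE 0.24, edgeR adjusted p 0.984).

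Of the ERR and NRF1 targets in mitochondria, 41 were tested, 23 above 0 and 18 below, with a median of 0.01 and 1 at an unadjusted p under 0.05. The ADP/ATP carrier Slc25a4 had 1539 ± 100 FPKM in DMSO and 1602 ± 50.8 after 3Cl-HBA, and the ATP synthase subunits Atp5f1b and Atp5f1a 1401 ± 29.3 and 810.5 ± 36.6 in DMSO and 1394 ± 89.7 and 804 ± 32.2 after 3Cl-HBA. Alas1, the first enzyme of heme synthesis, had 125, 114 and 123 CPM in DMSO and 130, 136 and 127 CPM after 3Cl-HBA (log2FC 0.12, SE 0.055, edgeR adjusted p 0.959). In mitochondrial DNA transcription and protein import, 17 were tested, 9 above 0 and 8 below, with a median of 0.0045 and 1 at an unadjusted p under 0.05. The chaperones Hspd1 and Hspa9 had 195 ± 6.76 and 166 ± 4.91 FPKM in DMSO against 194 ± 13 and 165 ± 1.86 after 3Cl-HBA. The import receptor Tomm20, with 127 ± 12.2 and 140 ± 2.58 FPKM, gave that 1 (log2FC 0.14, SE 0.058, edgeR adjusted p 0.959, and 0.06 without DMSO replicate 1, where its unadjusted p was 0.313). Beside these medians, that of all genes tested was -0.00047.

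**Figure D4:**
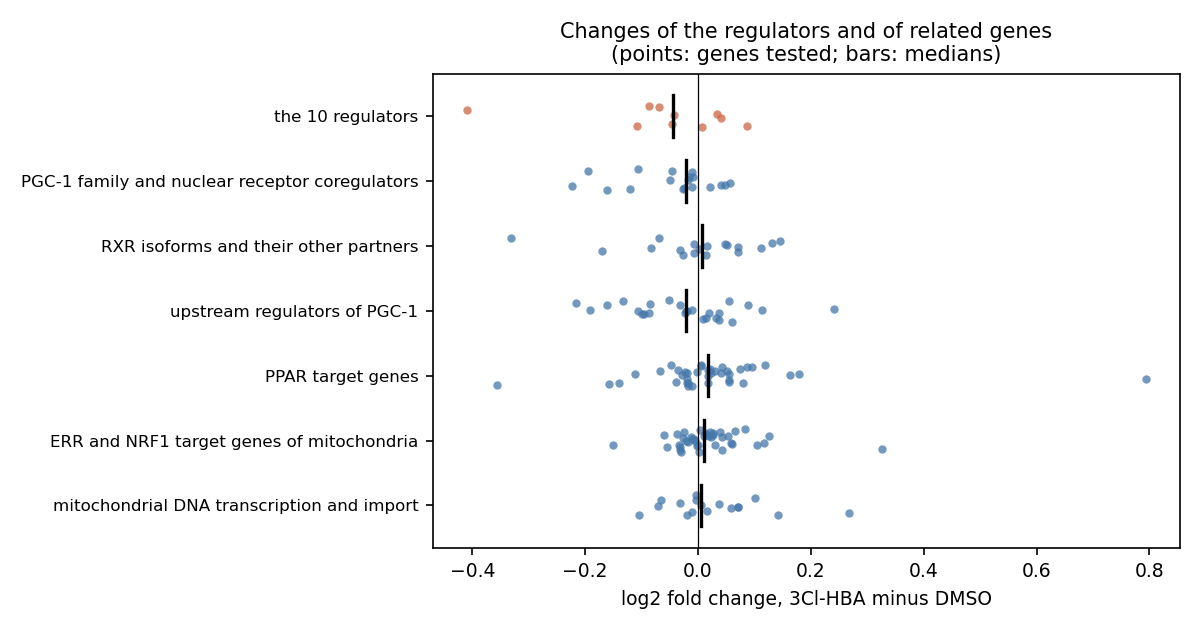
Log2 fold change (3Cl-HBA minus DMSO, horizontal axis) of the 10 regulators and of the genes tested in 6 related lists, 1 point per gene, with bars at medians. Each median lies between -0.04 and 0.02, Pparg is the lowest of the regulators at -0.41, and the point farthest right is Plin5 at 0.79.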

How the data were processed

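The deposited table of the whole series gives whole-number read counts per gene and library, which the authors did not normalise, per the file headers, and FPKM, which the authors computed, per the file headers, and which were found to be count over gene length and library total. Gene lengths are as deposited. Libraries were prepared with a KAPA RiboErase kit and DESeq2 is named, per the labels' protocols; the aligner, counting program, strand setting, genome build and annotation are stated in no source used here. Columns were matched to samples by treatment and number, and 0 per-sample columns were unmatched.

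Counts were fitted with edgeR 4.0.16 in R 4.3.3 (glmQLFit, robust, then glmQLFTest; TMM scaling; no replicate block; 13903 genes kept by filterByExpr at a minimum count of 10; threshold 0.05 on the adjusted p). SEs are the absolute log2 fold change over the square root of F, and 95% intervals use the test's degrees of freedom. DESeq2 1.42.0, limma-voom (limma 3.58.1), other scalings, no filter, a replicate block and leaving out each library were alternatives. The fit was tested on simulated data. FPKM were compared between genes and not tested. Replicate pairs within a group differed by more than counting noise (chi-square per degree of freedom 2.88 to 4.93). By the rule for naming genes, the text names the 10 regulators, Pprc1, Rxrb and Rxrg, the 3 most abundant genes and the 1 with the smallest p of each list, 3 genes close to Ppargc1a, and abundant or defining markers; 1 gene that the rule names is not reported here. The regulators and lists were chosen with earlier results of these data known. Sequences are from RefSeq (GRCr8), and 1 symbol was matched through its names. The promoter motifs were chosen after the windows had been seen: the NRF1 core replaced a longer form of the same site that had also matched Ppara, and a PPAR element that matched none of these windows was searched and not kept.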

Additional observations from a re-analysis of the deposited data

How the results depend on the processing

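Over 12 alternative settings, 0 regulators passed in each, and their smallest adjusted p was 0.753. The count over all genes was 2 with no filter on low counts, 1 with limma-voom, and 0 to 8 when single libraries were left out (8 without DMSO replicate 3, 1 without DMSO replicate 2, and 2 and 3 without 3Cl-HBA replicates 2 and 3); that of the PPAR targets was 0 to 1, the 1 being Ucp2 without DMSO replicate 3. The 2 other scalings, DESeq2 and the replicate block turned no regulator's sign, and 6 regulators kept it throughout. Leave-one-out ranges of log2 fold changes that turned sign were -0.1045 to 0.1967 for Ppara, -0.2089 to 0.07382 for Esrrb, -0.03352 to 0.06437 for Esrrg, -0.02936 to 0.1253 for Nrf1, -0.02975 to 0.007383 for Pprc1, -0.1435 to 0.02144 for Rxrb, -0.05015 to 0.01356 for Ncor1, -0.03744 to 0.03868 for Yy1, -0.1304 to 0.04541 for Mef2a, -0.02693 to 0.03149 for Prkab1, -0.02734 to 0.0407 for Txnip (0.001877 with no filter), -0.001823 to 0.03 for Hadhb, -0.04886 to 0.03638 for Atp5f1b, -0.04037 to 0.02541 for Atp5f1a, -0.05554 to 0.02801 for Hspd1, -0.02886 to 0.009998 for Hspa9 and -0.1585 to 0.01174 for Gbp1; the cause was not tested. Without sign turns, the ranges were -0.09 to -0.02 for Ppard, -0.14 to -0.07 for Rxra and -0.71 to -0.03 for Rxrg, and, among the genes with the smallest p of their list, -0.31 to -0.15 for Ep300, -0.22 to -0.11 for Ppp3cb, -0.20 to -0.13 for Thra, 0.11 to 0.23 for Ucp2, 0.08 to 0.14 for Alas1 and 0.06 to 0.19 for Tomm20, each of these 6 missing an unadjusted p under 0.05 without at least 1 library. The regulators' median became 0.0076 without DMSO replicate 2. The median of each related list also turned sign in at least 1 leave-one-out fit. Without 3Cl-HBA replicate 1 it was 0.0099 for coregulators, 0.027 upstream of PGC-1 and -0.015 for RXR isoforms and partners. In that fit it was -0.0018 for PPAR targets and -0.017 for ERR and NRF1 targets. For mitochondrial DNA transcription and import it was -0.009 without DMSO replicate 3.

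With the replicate block, 0 genes and 0 regulators passed. Deviations of same-numbered libraries correlated at -0.069, -0.044 and -0.045, so the numbers were not taken as pairs.

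Without division by length, by construction, the shares of family CPM (DMSO first, 3Cl-HBA second) were 16.1 and 17.3% (Ppara), 73.5 and 74.5% (Ppard), 10.4 and 8.2% (Pparg), 43 and 41.4% (Esrra), 1.92 and 1.92% (Esrrb), 55.1 and 56.7% (Esrrg), 24.9 and 23.8% (Ppargc1a), 22.5 and 24% (Ppargc1b), 52.5 and 52.2% (Pprc1), 48.8 and 48.3% (Rxra), 49.5 and 50.2% (Rxrb), and 1.74% in DMSO (Rxrg). The widest 95% intervals were those of Rxrg, Esrrb and Pparg, which also had the fewest reads; the part of depth was not tested.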
